A study of Homo sapiens with 4 samples.

Results

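Small nucleolar RNA (snoRNA) host genes were examined in PC3 and 22RV1, established cell lines of human prostate cancer in which DDX52, a DEAD-box RNA helicase, had been knocked down. The genes were taken by name: every gene whose symbol is SNHG followed by a number, plus GAS5, ZFAS1, EPB41L4A-AS1 and DANCR. This gave 32 of the 60671 genes listed, 28 of them with SNHG symbols. Each cell line carried lentiviral pLKO.1 vectors and puromycin selection, with either a control shRNA (shCON) or an shRNA against DDX52 (shDDX52). A lone shRNA sequence per target was used, and RNA-seq covered 22RV1 shCON, 22RV1 shDDX52, PC3 shCON and PC3 shDDX52 with 1 library each. Without replicates no difference below could be tested. Values are TPM, the length-corrected share of transcripts in a library, so levels of different genes can be set side by side. The depth behind them is unknown, because TPM does not keep it.

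A snoRNA host gene is transcribed, spliced and trimmed so that snoRNAs are released from its introns. Box C/D snoRNAs guide 2′-O-methylation and box H/ACA snoRNAs guide pseudouridylation, for the most part of rRNA, while small Cajal body RNAs (scaRNAs) guide the same changes on spliceosomal snRNA. The spliced exons that remain are mostly noncoding. For several hosts, GAS5 among them, they are known to be translated over short reading frames, to carry a 5′ terminal oligopyrimidine (TOP) tract and to be degraded by nonsense-mediated decay, so their level depends on synthesis, translation and decay together.

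The snoRNAs show what these hosts deliver. In the GENCODE 29 annotation, 30 of the 32 hosts held at least 1 snoRNA or scaRNA gene on their own strand, 144 in all, many of them in SNHG14. By the names of these small RNAs, 12 hosts carried box C/D snoRNAs alone, 11 carried box H/ACA snoRNAs alone, 4 carried scaRNAs alone and 2 carried both box types. GENCODE 29 placed none in GAS5, although RefSeq lists 11 within its span, SNORD44 and SNORD47 among them. The sequences below are GENCODE 29 transcripts from 3 of the hosts that were lower in 22RV1, with the C box TGATGA and the D box CTGA, or the ACA near the 3′ end, in capitals. SNORA13 of EPB41L4A-AS1 is a box H/ACA RNA of 133 bases, SNORD50B of SNHG5 is a box C/D RNA of 70 bases, and the 3 box C/D RNAs of ZFAS1 are relatives of each other.
SNORA13: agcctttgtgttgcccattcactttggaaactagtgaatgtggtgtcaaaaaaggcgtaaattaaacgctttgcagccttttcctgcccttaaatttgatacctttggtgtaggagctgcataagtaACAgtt
SNORD50B: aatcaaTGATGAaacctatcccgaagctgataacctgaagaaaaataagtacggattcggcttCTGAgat
SNORD12C: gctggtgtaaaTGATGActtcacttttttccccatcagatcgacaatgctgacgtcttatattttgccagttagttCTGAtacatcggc
SNORD12B: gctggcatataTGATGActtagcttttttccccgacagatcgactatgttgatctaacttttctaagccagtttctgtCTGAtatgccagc
SNORD12: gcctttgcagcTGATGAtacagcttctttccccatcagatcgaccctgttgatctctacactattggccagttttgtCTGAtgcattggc

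The transcript start is the second feature that hosts are known for. RefSeq promoter windows (GRCh38.p14) were found for 28 of the 32 hosts. A C at the listed start followed by at least 4 pyrimidines, the letters of a TOP tract, was present in 7 of these 28 (25%), against 4.04% of 27305 promoters in the same table and 16.7% of 216 protein-coding snoRNA hosts. The E-box CACGTG, a sequence bound by MYC, is the same on both strands and was present in the windows of 2 hosts, SNHG7 and SNHG30 (7.14%), against 7.43% of all promoters. The windows below run from 20 bases before to 20 bases from the listed start, with the unbroken run of pyrimidines at the start in capitals. SNHG5, ZFAS1, SNHG12, SNHG19 and SNHG32 have the tract at this start, whereas the listed starts of EPB41L4A-AS1 and GAS5 do not, and starts differ between annotations.
SNHG5, chr6:85678714-85678753, minus strand: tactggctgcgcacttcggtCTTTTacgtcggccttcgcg
ZFAS1, chr20:49278622-49278661, plus strand: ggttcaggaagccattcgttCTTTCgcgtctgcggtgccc
SNHG12, chr1:28581854-28581893, minus strand: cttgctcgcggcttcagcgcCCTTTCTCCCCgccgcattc
SNHG19, chr16:2155339-2155378, minus strand: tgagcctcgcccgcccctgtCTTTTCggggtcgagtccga
SNHG32, chr6:31834896-31834935, plus strand: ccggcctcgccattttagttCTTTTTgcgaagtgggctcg
EPB41L4A-AS1, chr5:112160506-112160545, plus strand: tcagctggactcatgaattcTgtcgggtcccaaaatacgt

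Across the libraries, listed TPM summed to between 984448 and 990860, and between 13504 and 13738 genes reached 1 TPM. The targeted gene, DDX52, was at 4.88 TPM in the 22RV1 control and 1.2 TPM after knockdown, and at 9.20 and 2.07 TPM in the PC3 libraries. Genes annotated as rRNA held from 0.0872% (22RV1 shDDX52) to 3.13% (PC3 shDDX52) of the TPM. When TPM was recomputed over nuclear protein-coding genes and the hosts, the median log2 ratio of the genes in that fit was 0.086 in PC3, against −0.036 for all genes with the deposited values, and −0.060 against −0.076 in 22RV1.

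The hosts formed a small but unequal part of the transcriptome. Together they made up 2266 TPM in 22RV1 shCON (0.229% of the total) and 1355 TPM in PC3 shCON (0.137%). Levels ran from SNHG18, a box C/D host listed at 0 in all 4 libraries, to GAS5 at 497 TPM in 22RV1 shCON. In that library 20 hosts reached 10 TPM, and the 5 highest held 64.5% of the summed level. In PC3 shCON, 21 hosts reached 10 TPM and the 5 highest held 51.9%.

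The order of the hosts differed between the control libraries. In 22RV1 shCON the highest were GAS5 (497 TPM), SNHG29 (377), SNHG5 (237), SNHG32 (185) and SNHG8 (166). In PC3 shCON they were SNHG6 (169 TPM), SNHG29 (165), ZFAS1 (135), DANCR (128) and SNHG32 (107). Only SNHG29, named LRRC75A-AS1 in GENCODE 29, and SNHG32, named C6orf48 and annotated there as protein-coding, were in both lists. Differences between neighbours in either order have no measured spread and may not hold.

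Changes between libraries were computed as log2((TPM + 1)/(TPM + 1)), here the log2 ratio, and a gene needed 1 TPM or more in 1 of the libraries compared. Because of the added 1, ratios of weakly expressed genes are too close to 0. For PC3 shCON against 22RV1 shCON, 28 hosts could be compared. At least 2-fold lower in PC3 were 5 of them (background over all genes, 21.3%), and 2 were at least 2-fold higher (background, 19.9%). SNHG5 was 237 TPM in 22RV1 and 17.6 in PC3, a log2 ratio of −3.68. SNHG7 was 69.2 and 9.92 TPM (−2.68), and GAS5 was 497 and 88.5 TPM (−2.48). SNHG29 and SNHG8 were the other two lower hosts, with log2 ratios of −1.19 and −1.13, and the higher ones were SNHG25, at 3.72 and 10.4 TPM (1.27), and SNHG22, at 0.66 and 2.32 TPM, exactly at 2-fold. The median over the hosts was 0.057, with 14 higher and 14 lower, and it turned to −0.0020 with nuclear protein-coding scaling, so no direction is given for the group. These are levels in libraries deposited in separate tables.

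**Figure D1:**
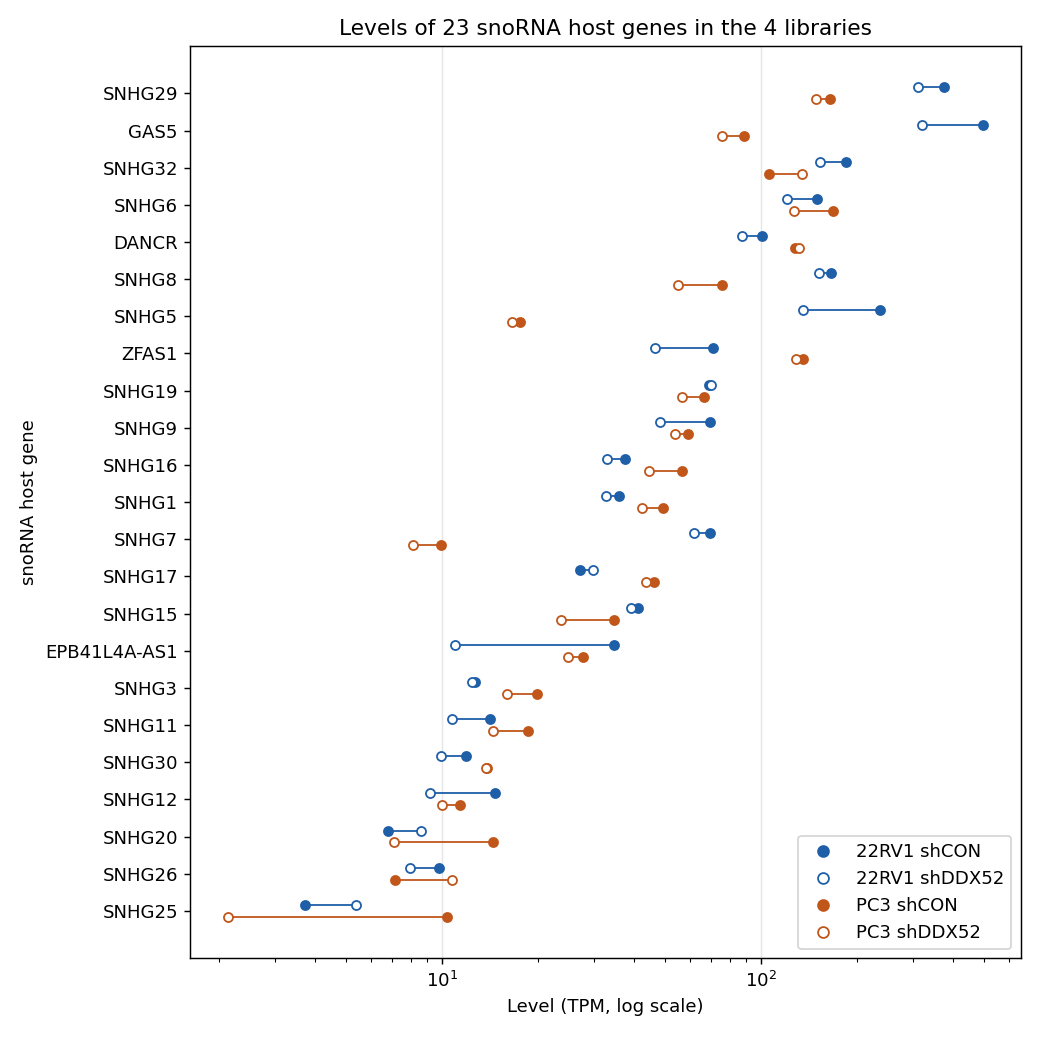
Level of the 23 hosts that the text names by rule, in TPM on a log scale, in 22RV1 (blue) and PC3 (orange), with shCON as filled and shDDX52 as open circles and 1 library behind each circle. SNHG5, GAS5 and SNHG7 lie well apart between the cell lines, and the longest line in 22RV1 is that of EPB41L4A-AS1, from 34.7 to 11.04 TPM.

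In 22RV1 cells, most hosts were lower with shDDX52. EPB41L4A-AS1 was at 31.8% of its control, SNHG5 at 57.5%, SNHG12 at 62.4%, GAS5 at 64.5% and ZFAS1 at 66.0%. Of the 28 hosts with at least 1 TPM, 21 were lower and 7 higher, so that 75% were lower against 58.8% of 14438 genes. The median log2 ratio was −0.22, beside −0.076 over all genes and −0.077 over the 1555 other lncRNA genes. It stayed below 0 under each scaling run, from −0.22 to −0.14. The summed level of the hosts was 2266 TPM in the control and 1745 TPM after knockdown, a log2 ratio of −0.38. In bulk RNA, fewer cells of a kind and less RNA per cell cannot be told apart.

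EPB41L4A-AS1, the host of SNORA13 (ENSG00000224032, chromosome 5 from 112160526 to 112164276 in GENCODE 29), was at 34.7 TPM in the control and 11.04 TPM after knockdown in 22RV1. Its log2 ratio of −1.57 was the lowest of the hosts in this cell line, and it was the only host past 2-fold there, 1 of 28 (background, 2.86%). In PC3 the same RNA was at 27.8 and 24.8 TPM (−0.16). The controls of both lines thus held similar levels, and the low value belongs to the 22RV1 shDDX52 library. Its exons overlap those of EPB41L4A, on the opposite strand, over 1659 bases, and EPB41L4A was 0.59 and 1.09 TPM in 22RV1 and was listed at 0 in PC3.

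GAS5 (ENSG00000234741, chromosome 1 from 173863900 to 173868882) is named growth arrest specific 5 and is a well-known host whose spliced RNA accumulates when translation is blocked. In 22RV1 its level was 497 TPM in the control and 321 TPM after knockdown (−0.63). This loss of TPM was the greatest of any host, and GAS5 made up 21.9% of the summed host level in the control library and 18.4% with shDDX52. In PC3 the levels were 88.5 and 75.5 TPM (−0.23).

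SNHG5 (ENSG00000203875, chromosome 6 from 85660950 to 85678748), the host of SNORD50B, was at 237 TPM in the 22RV1 control and 136 TPM after knockdown. The log2 ratio was −0.79, whereas in PC3, where the level was far lower, 17.6 and 16.7 TPM gave −0.073. ZFAS1 (ENSG00000177410, chromosome 20 from 49278178 to 49295738), the host of the SNORD12 family, was 70.8 and 46.7 TPM in 22RV1, a log2 ratio of −0.59 and just past 1.5-fold. In PC3 it was 135 and 129 TPM (−0.066). SNHG12, which holds box C/D and box H/ACA snoRNAs, was 14.7 and 9.20 TPM in 22RV1 (−0.63) and 11.43 and 10.01 TPM in PC3 (−0.18). For SNHG5 and ZFAS1 in PC3, the sign turned with nuclear protein-coding scaling, to 0.051 and 0.063.

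These 5 hosts were the ones at least 1.5-fold lower in 22RV1, 17.9% of the 28 with a ratio. The background was 8.49% over all genes and 16.4% over other lncRNA genes, many of which have low values. Among genes with at least 10 TPM, a minimum added after the values were seen, it was 5 of 20 hosts (25%), against 5.32% of all genes and 13.7% of 197 other lncRNA genes. When log2 ratios were centred on the median of all genes, 2 of the 5 stayed past 1.5-fold, EPB41L4A-AS1 and SNHG5. At least 1.5-fold higher were 2 hosts (backgrounds, 5.61% of all and 12.2% of other lncRNA genes), and none was past 2-fold (2.24%). These were SNHG21, at 1.79 and 3.61 TPM, and SNHG28, at 0.40 and 1.26 TPM, which met the minimum through shDDX52 alone. No host with at least 10 TPM was 1.5-fold higher, where 2.69% of all genes and 9.14% of other lncRNA genes were.

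The remaining named hosts in 22RV1 moved less. SNHG9, a box H/ACA host, was 69.3 and 48.2 TPM (−0.52), and SNHG11 was 14.2 and 10.7 TPM (−0.37). SNHG29, the host of SNORD49A, SNORD49B and SNORD65, was 377 and 311 TPM (−0.27), SNHG26 was 9.77 and 7.96 TPM (−0.27), SNHG32 was 185 and 154 TPM (−0.26), and SNHG6 was 150 and 121 TPM (−0.30). SNHG30 (−0.24), DANCR (−0.21), SNHG16 (−0.18), SNHG7 (−0.16), SNHG1 (−0.13) and SNHG8 (−0.12) were lower by less. SNHG15 and SNHG3, with log2 ratios of −0.072 and −0.028, turned to values above 0 when centred on all genes. SNHG19 (0.021), SNHG17 (0.13), SNHG20 (0.31) and SNHG25 (0.44) were higher.

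In PC3 cells, 24 of 28 hosts were lower with shDDX52 and 4 higher, 85.7% against a background of 53.5% of 14262 genes lower. The median log2 ratio was −0.22, beside −0.036 over all genes and −0.11 over 1509 other lncRNA genes. It remained below 0 under each scaling run but was −0.094 with nuclear protein-coding scaling, where the median of the genes in that fit was 0.086. The summed host level was 1355 TPM in the control and 1212 TPM after knockdown, a log2 ratio of −0.16, and this came to −0.031 with the same scaling. The lower and upper quartiles of the hosts were −0.35 and −0.077, so most were slightly below their control and few passed 1.5-fold.

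At least 1.5-fold lower in PC3 were 2 of 28 hosts (7.14%), close to the backgrounds of 9.86% of all genes and under the 22.7% of other lncRNA genes. With at least 10 TPM it was 2 of 22 hosts (9.09%), against 7.49% of all and 23.9% of other lncRNA genes. None was 1.5-fold higher, where 8.95% of all genes and 14.0% of other lncRNA genes were, and 6.21% and 14.1% with at least 10 TPM. SNHG25 was the only host past 2-fold lower (background, 3.44%), and none was past 2-fold higher (2.86%). With 0.1 added to TPM in place of 1, SNHG20 was past 2-fold lower as well, at −1.02. The backgrounds given here are for the added 1.

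SNHG25 (ENSG00000266402, chromosome 17 from 64145970 to 64146476), the host of SNORD104 and SNORA50C, was 10.4 TPM in PC3 shCON and 2.14 in PC3 shDDX52, a log2 ratio of −1.86. In 22RV1 it was 3.72 and 5.40 TPM (0.44). Its exons cover 278 bases, the shortest of the hosts. SNHG20 was 14.4 and 7.09 TPM in PC3 (−0.93) and 6.78 and 8.62 TPM in 22RV1 (0.31). SNHG20 shares 460 bases of exon with SEC14L1 on the same strand, and SEC14L1 went the other way, from 26.7 to 49.3 TPM in PC3 and from 15.5 to 11.1 TPM in 22RV1, so how shared reads were assigned bears on both values and was not tested.

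Several abundant hosts in PC3 were lower by less than 1.5-fold. SNHG15, the host of SNORA9, was 34.6 and 23.7 TPM (−0.53), SNHG8 was 75.4 and 54.9 TPM (−0.45) and SNHG6 was 169 and 127 TPM (−0.41). SNHG16 and SNHG11 had log2 ratios of −0.34 each and SNHG3 one of −0.30, followed by SNHG7 (−0.26), SNHG1 and SNHG19 (−0.22 each), SNHG29 (−0.14), SNHG9 (−0.13), SNHG17 (−0.079) and SNHG30 (−0.012). Those of SNHG17 and SNHG30 turned above 0 with nuclear protein-coding scaling. Higher in PC3 were SNHG26, the host of SNORD93, at 7.12 and 10.8 TPM (0.54), SNHG32, at 107 and 135 TPM (0.34), and DANCR, the host of SNORA26, at 128 and 132 TPM (0.049). SNHG32 shares 418 bases of exon with ENSG00000285565 on the same strand, which was 4.82 and 17.08 TPM in PC3 (1.64). How reads shared by these genes were assigned was not tested. With nuclear protein-coding scaling, SNHG26 reached 0.67 and so passed 1.5-fold.

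**Figure D2:**
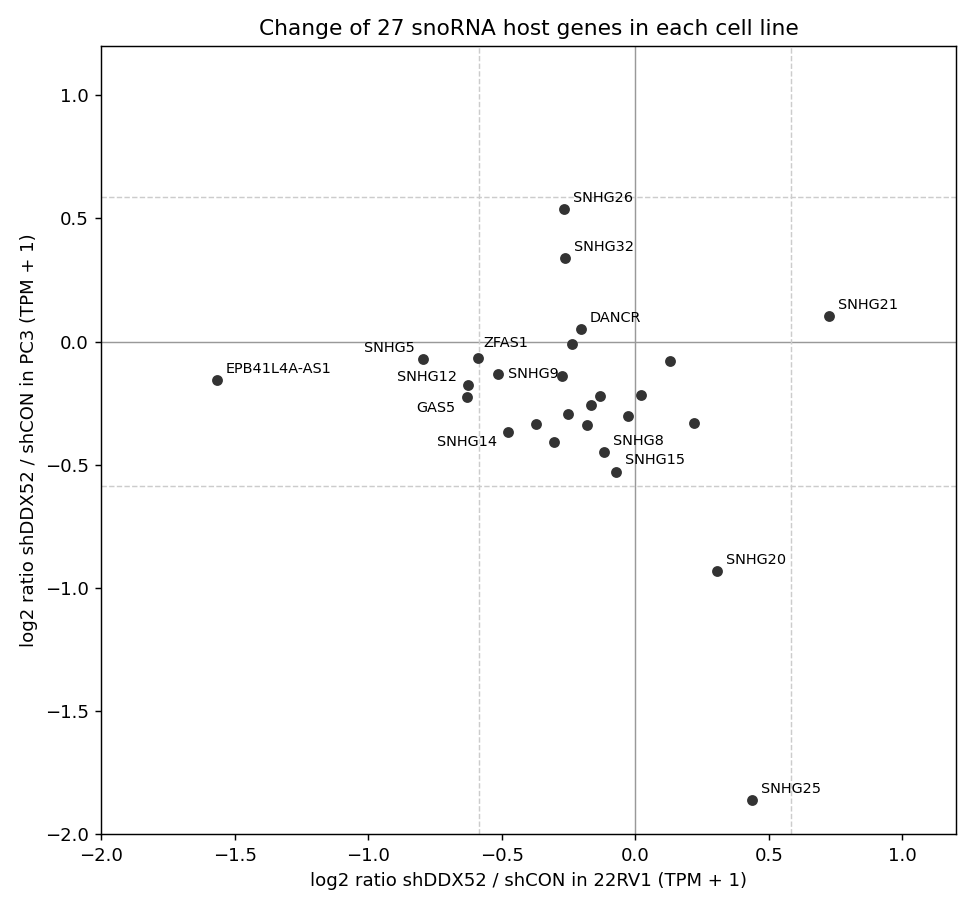
log2 ratio of shDDX52 to shCON, computed on TPM + 1, in 22RV1 (x axis) and PC3 (y axis) for the 27 hosts with at least 1 TPM in a library of each line, 1 point per host and dashed lines at 1.5-fold. EPB41L4A-AS1 lies far left at −1.57 with −0.16 in PC3, and SNHG25 lies lowest at −1.86 with 0.44 in 22RV1.

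Over both cell lines, 27 hosts could be compared. Lower in both were 18 of them (66.7%), higher in both was 1, SNHG21, and 8 went opposite ways. Over all 12175 genes with values in both lines, 32.5% were lower in both, 18.5% higher in both and 48.8% opposite. Of the 18, SNHG5, ZFAS1 and SNHG30 turned above 0 in PC3 with nuclear protein-coding scaling (0.051, 0.063 and 0.11). SNHG15 and SNHG3 turned above 0 in 22RV1 when centred on the median of all genes (0.0042 and 0.048). The shares given here hold for the deposited values only. The hosts past 1.5-fold lower differed between the lines, EPB41L4A-AS1, SNHG5, GAS5, SNHG12 and ZFAS1 in 22RV1 and SNHG25 and SNHG20 in PC3, and none was past it in both, where 1.18% of all genes were. With 1 library per condition, whether any host responded differently in the 2 cell lines was not tested. The 9 hosts not named by rule were all under 10 TPM in every library, and SNHG18, SNHG27 and SNHG31 passed the minimum in neither cell line.

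Hosts of the box types were also described apart, a split made after the values were seen. GAS5, in which GENCODE 29 placed no snoRNA gene, was in neither group. SNHG12 and SNHG25, which carry both box types, were left out of both as well, as were the scaRNA hosts. In 22RV1, 10 of 11 box C/D hosts and 8 of 10 box H/ACA hosts were lower, with median log2 ratios of −0.27 and −0.14. In PC3, 9 of 11 and 9 of 10 were lower, with medians of −0.14 and −0.28. The order of the box types thus differed between the lines. Hosts with the TOP letters at the listed start had a median of −0.43 in 22RV1 (4 of 6 lower) and −0.12 in PC3 (5 of 6 lower). The 18 hosts without them, GAS5 included by its listed start, had medians of −0.19 (14 of 18 lower) and −0.24 (15 of 18 lower). Over all genes, 58.8% were lower in 22RV1 and 53.5% in PC3.

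Protein-coding snoRNA hosts are the nearest comparable group. GENCODE 29 gave 273 protein-coding genes with a snoRNA gene inside them on the same strand. In 22RV1, 152 of 212 were lower (71.7%), with a median log2 ratio of −0.13, and 15 were at least 1.5-fold lower and 2 higher, 7.08% and 0.943% against 8.49% and 5.61% of all genes. In PC3, 131 of 213 were lower (61.5%), with a median of −0.095, and 16 were at least 1.5-fold lower and 14 higher, 7.51% and 6.57% against 9.86% and 8.95% of all genes. Their medians lay between those of the noncoding hosts and of all genes in both lines. With at least 10 TPM, 73.6% of 148 coding hosts were lower in 22RV1 and 71.6% of 148 in PC3, against 58.2% of all genes in each line. Medians of the coding hosts were then −0.12 and −0.16. Those of the hosts taken by name were −0.25 and −0.20, and those of all genes −0.057 and −0.072. The 28 ribosomal protein genes among the coding hosts, a split made after the values were seen, had a median of −0.092 in 22RV1 and one of −0.25 in PC3.

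**Figure D3:**
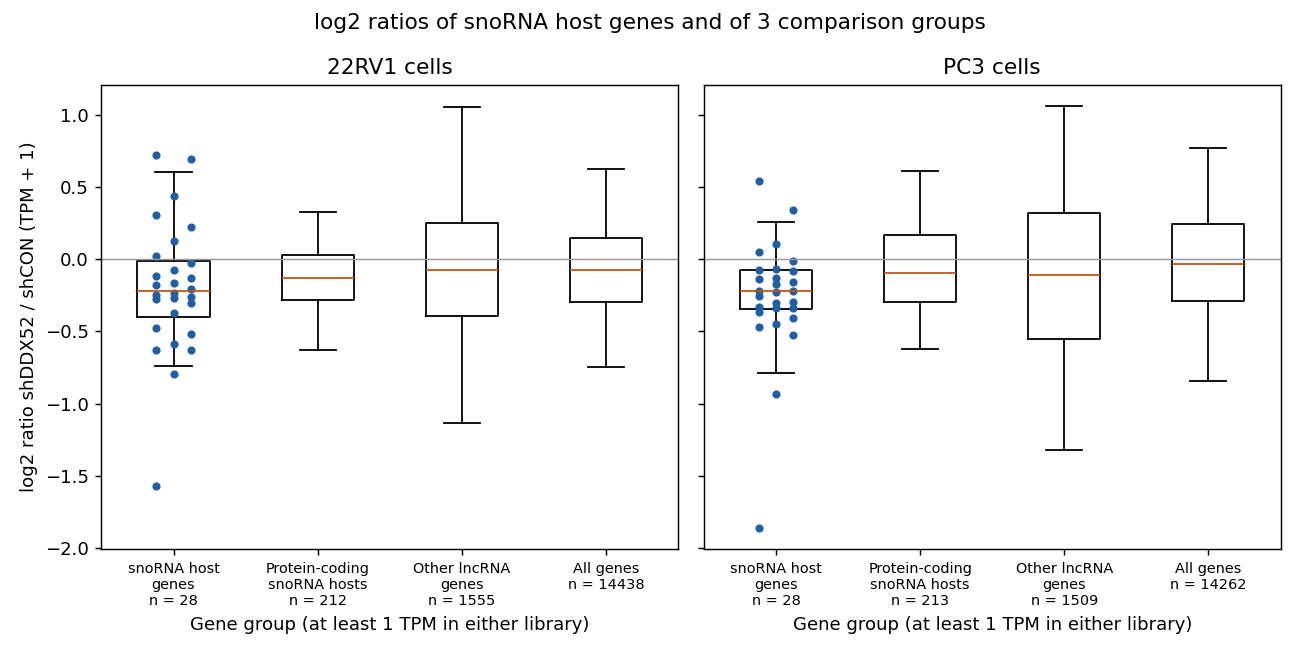
log2 ratios of shDDX52 to shCON (TPM + 1) in 22RV1 (left) and PC3 (right) for genes with at least 1 TPM, as boxes from the lower to the upper quartile with the median in orange and whiskers from the 5th to the 95th percentile, and with each host as a blue point. The host medians are −0.22 in both lines, below those of all genes (−0.076 and −0.036), and the other lncRNA genes spread more widely than the hosts.

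The snoRNAs themselves were almost absent from these files. Of the 144 snoRNA and scaRNA genes inside the hosts, 6 had a value above 0 in any library and none in all 4. SNORA73A and SNORA73B, both in SNHG3, were 10.5 and 4.70 TPM in 22RV1 shCON, 38.8 and 48.7 in PC3 shDDX52, and 2.91 and 0 in PC3 shCON, and both were listed at 0 in 22RV1 shDDX52. The rRNA share of the libraries was high and low in the same places as these 2 snoRNAs, 1.21% and 3.13% in the first 2 of these libraries against 0.0923% and 0.0872%. SCARNA16 was above 0 in 22RV1 shCON alone (5.28 TPM) and SNORA74A in PC3 shDDX52 alone (4.67 TPM). SNORA71B and SCARNA13 went the other way in 22RV1, from 6.75 to 7.36 TPM and from 0.72 to 2.69 TPM. In PC3 they were higher with shDDX52, as SNORA73A and SNORA73B were, from 0 to 4.60 TPM and from 0 to 0.93 TPM. The part of rRNA in the snoRNA values was not tested. SNHG3 itself did not follow SNORA73A and SNORA73B, at 12.7 and 12.5 TPM in 22RV1 and 19.96 and 16.01 TPM in PC3 (−0.028 and −0.30). How these libraries recover RNAs this short was not tested, and no statement on snoRNA amounts is made.

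Genes for the proteins that bind or act on these RNAs were examined as lists, too short to stand apart by counts, since 8.49% of all genes were 1.5-fold lower and 5.61% higher in 22RV1, and 9.86% and 8.95% in PC3. Of the 4 box C/D core proteins, none passed 1.5-fold in either line. FBL, the methyltransferase fibrillarin, was 933 and 974 TPM in 22RV1 and 499 and 471 TPM in PC3. NOP56 was 377 and 386 TPM in 22RV1 (0.032) and 376 and 277 TPM in PC3 (−0.44), and NOP58 was 47.1 and 48.2 TPM (0.031) and 58.4 and 41.8 TPM (−0.47). None of the 4 box H/ACA core genes passed 1.5-fold either. DKC1, the pseudouridine synthase dyskerin, was 98.8 and 91.7 TPM in 22RV1 and 110.0 and 115 TPM in PC3. The medians of the box C/D and box H/ACA cores were 0.032 and −0.10 in 22RV1 and −0.26 and −0.20 in PC3.

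NAF1, an assembly factor of H/ACA particles, was 34.9 and 10.7 TPM in 22RV1 (−1.62) but 6.46 and 8.23 TPM in PC3 (0.31). It was the only one of 10 assembly genes past 1.5-fold in 22RV1. RPAP3, a subunit of the R2TP chaperone complex, was the only one in PC3, at 12.8 and 6.71 TPM (−0.84). Of 10 nonsense-mediated decay factors, none passed 1.5-fold in 22RV1. In PC3 SMG9, a subunit of the SMG1 kinase complex, was past 1.5-fold lower, at 41.3 and 23.5 TPM (−0.79). UPF1, the central helicase of this decay, was 53.3 and 55.9 TPM in 22RV1 and 60.7 and 55.1 TPM in PC3. Of 5 exon junction complex genes, MAGOHB passed 1.5-fold in 22RV1 only, at 36.07 and 23.01 TPM (−0.63), and was 23.33 and 15.98 TPM in PC3 (−0.52). Median log2 ratios of the decay factors were −0.16 in 22RV1 and −0.14 in PC3.

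Coding genes beside the hosts were given for context, since 8 hosts start within 1000 bases of a coding gene on the opposite strand. SLC3A2, which starts 188 bases from SNHG1 and encodes the heavy chain of amino acid transporters, was 306 and 231 TPM in 22RV1 (−0.40) and 223 and 233 TPM in PC3 (0.064), beside −0.13 and −0.22 for SNHG1. RPS2, a ribosomal protein gene 99 bases from SNHG9, was 7511 and 9611 TPM in 22RV1 (0.36), whereas SNHG9 was lower there (−0.52). These neighbours thus lay on opposite sides of 0 in 22RV1. TRAF7, beside SNHG19, had log2 ratios of 0.32 and −0.023, against 0.021 and −0.22 for SNHG19. ZBTB37, beside GAS5, was no higher than 1.03 TPM. ZNFX1, beside ZFAS1, was 6.67 and 5.48 TPM in 22RV1 (−0.24) and 7.25 and 12.8 TPM in PC3 (0.74).

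Overlap limits some of these values. Exons of 16 hosts overlap exons of a coding gene in GENCODE 29, and whether counting used strand is not stated. No coding gene's exons overlap those of GAS5 or SNHG5.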

How the data were processed

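Per the labels and the study's methods, total RNA was sequenced from 4 libraries, 1 per condition. The authors deposited TPM per Ensembl gene in 1 table per cell line, and every sample column was used. Their processing notes name CASAVA, HISAT2 and hg19. The quantifier, annotation release and strand setting are not given in the sources used here. Gene IDs fit GRCh38 annotation (the current DDX52 ID is listed, its older one is not), so coordinates come from GENCODE 29 on GRCh38 and promoters from RefSeq.

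From TPM, log2 ratios were computed with a pseudocount of 1 over genes with at least 1 TPM in a library of the pair, in Python 3.11.15 with numpy 2.4.6 and pandas 2.3.3, and the code was tested on simulated data. Named by rule were hosts with 10 TPM in any library or past 2-fold, GAS5, ZFAS1, EPB41L4A-AS1 and DANCR, list genes past 1.5-fold with FBL, NOP56, NOP58, DKC1 and UPF1, and head-to-head coding neighbours of named hosts. Members and lists were chosen with earlier results of these data known. The 10 TPM minimum as an alternative was added after seeing the data. Alternatives changed the pseudocount, minimum, scaling, centring or member set. A ratio of exactly the fold counted as reaching it. TPM keeps no depth, so counting error is unknown. Some genes are not reported here.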

Additional observations from a re-analysis of the deposited data

Results flagged for a closer look

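SNHG25 and SNHG20 went opposite ways in the 2 cell lines and were singled out for that. The log2 ratio of SNHG25 was 0.44 in 22RV1 and −1.86 in PC3, a difference of −2.30. That of SNHG20 was 0.31 in 22RV1 and −0.93 in PC3, a difference of −1.24. With 1 library per condition, neither difference was tested.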

How the results depend on the processing

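No paired analysis was possible because the labels give no replicates, and no replicate could be left out. Of 58 alternatives over the 9 main results, 50 stayed within the tolerance, which was 0.1 on the log2 scale for medians and sums and 1.5 times for counts. The summed log2 ratios use neither the pseudocount nor the minimum. Alternatives that changed only these could not move the sums, yet they are counted among the 50. The 5 hosts at least 1.5-fold lower in 22RV1 became 2 when ratios were centred on all genes. The 2 higher in 22RV1 became 0 with a minimum of 5 TPM and 0 with one of 10 TPM. In PC3, 1 host became at least 1.5-fold higher with a pseudocount of 0.1, and 1 with nuclear protein-coding scaling. That scaling also moved the PC3 median to −0.094 and the PC3 summed log2 ratio to −0.031, and turned the median of PC3 shCON against 22RV1 shCON from 0.057 to −0.0020. The scaling takes rRNA, mitochondrial RNA and all other genes that are neither nuclear protein-coding nor hosts out of the total. Which of these moved the values was not tested. Of 138 alternatives for the named hosts, 115 stayed within the tolerance. All those outside it were in PC3. Nuclear protein-coding scaling moved every named host there except SNHG25, and a pseudocount of 0.1 moved SNHG25. Depth behind TPM is unknown, so differences among weakly expressed hosts have no stated precision.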
